A study of Mus musculus with 4 samples.

Results

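The 10 genes described here encode IL-6 family cytokines, their receptors and the feedback inhibitor of the pathway: the ligands *Il6*, *Lif*, *Il11* and *Clcf1*, the receptor chains *Il6ra*, *Il6st*, *Lifr*, *Osmr* and *Il11ra1*, and *Socs3*. They were listed by name and make up 10 of the 33696 genes listed. Each was measured as its level, as the share of cells in which it was detected, and as its detection in the same cells as its partner. Cells came from melanoma tumors that had grown for 14 days after 400000 B16-F1-OVA cells, a mouse melanoma line expressing ovalbumin, were injected intraperitoneally (IP). All hosts were Cxcl13-cre-tdTomato x R26R-eGFPflox mice of the C57Bl/6 strain, although the stock name of the R26R-eGFPflox parent also holds a second strain. In these mice tdTomato reports a currently active *Cxcl13* promoter, and eGFP marks cells in which Cre has acted and their progeny. *Cxcl13* encodes a chemokine that attracts B cells. Cancer-associated fibroblasts (CAF), gated as CD45neg CD31neg PDPNhi, were sorted into 4 populations: tdTomatoneg eGFP+, tdTomato+ eGFPneg, tdTomato+ eGFP+ and tdTomatoneg eGFPneg. Tumors were digested with collagenase before the sort. Mice of both sexes were used in the study. Each population gave 1 single-cell library, so there is no replicate of a population, no p-value is given, and intervals cover counting error only.

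The ligands described here all signal through gp130, encoded by *Il6st*, which is paired with or recruited by a receptor chain that recognises the ligand. IL-6 binds the IL-6 receptor (*Il6ra*) and IL-11 the IL-11 receptor (*Il11ra1*), whereas LIF signals through gp130 with the LIF receptor (*Lifr*) and oncostatin M through gp130 with *Osmr* or *Lifr*. Cardiotrophin-like cytokine (*Clcf1*) acts on a complex of CNTFR, *Lifr* and gp130. Janus kinases bound to these chains phosphorylate STAT3, and STAT3 induces *Socs3*, whose protein binds gp130 and turns the signal off. Fibroblasts are a well-known source of IL-6 and LIF in tumors. A soluble form of the IL-6 receptor, released by proteases such as ADAM17, lets IL-6 act on cells that carry gp130 alone.

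The promoters of the 2 main ligands and of *Socs3* are shown because they hold the sites by which these genes are usually studied. Each line gives 250 bases before a RefSeq transcription start of the mouse build GRCm38.p6, 5′ to 3′ on the strand of the gene. Capitals mark a match to NF-kB (GGG, any 2 bases, TTTCC), AP-1 (TGANTCA) or STAT (TTCNNNGAA), searched on both strands.
Il6 (chr5:30012864-30013113, plus strand): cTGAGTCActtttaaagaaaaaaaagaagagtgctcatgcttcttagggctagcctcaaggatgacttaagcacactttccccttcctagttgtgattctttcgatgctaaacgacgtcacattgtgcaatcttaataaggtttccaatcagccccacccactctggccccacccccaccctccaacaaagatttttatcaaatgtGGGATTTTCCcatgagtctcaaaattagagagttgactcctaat
Lif (chr11:4257318-4257567, plus strand): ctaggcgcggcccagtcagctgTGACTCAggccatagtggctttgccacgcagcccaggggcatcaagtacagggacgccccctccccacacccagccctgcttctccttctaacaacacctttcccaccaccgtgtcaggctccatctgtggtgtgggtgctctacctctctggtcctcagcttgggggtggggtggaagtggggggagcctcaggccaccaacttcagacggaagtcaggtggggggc
Socs3 (chr11:117969367-117969616, minus strand): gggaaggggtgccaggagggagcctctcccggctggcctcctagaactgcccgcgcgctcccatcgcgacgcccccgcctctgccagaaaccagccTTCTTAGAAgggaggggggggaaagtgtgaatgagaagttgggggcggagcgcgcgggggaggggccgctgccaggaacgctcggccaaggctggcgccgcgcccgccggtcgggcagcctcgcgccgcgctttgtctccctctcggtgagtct

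The *Il6* window held an AP-1 match 249 bases and an NF-kB match 44 bases before the start, the *Lif* window an AP-1 match at 228 bases and the *Socs3* window a STAT match at 154 bases. Of 32851 promoter windows, each searched over the 250 bases before the start, 1.41% held the NF-kB letters, 6.75% the AP-1 letters and 7.02% the STAT letters. Windows were found for 9 of the 10 genes, all but *Clcf1*. One window of *Il11* held an AP-1 match at 98 bases, and the windows of the 5 receptor chains held none of the 3 motifs. These matches describe letters in the reference genome and not bound sites.

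Of 24489 cell barcodes, 22691 were kept after the filters of the study (500 to 6000 genes and at most 10% mitochondrial UMIs). They were 6006 tdTomatoneg eGFP+, 4952 tdTomato+ eGFPneg, 920 tdTomato+ eGFP+ and 10813 tdTomatoneg eGFPneg cells, with median depths between 5607 and 9154 UMIs, lowest in tdTomatoneg eGFPneg. Pairs of libraries shared 2 to 17 kept barcodes, at most 0.543% of the smaller library. Clusters were built without the 10 genes and named from markers. Mesothelial-like cells (10518), matrix fibroblast-like cells (4681) and hypoxic-like cells (4442, led by *Calb2*, *Nos2* and *Tafa2*) made up most of the cells. Clusters with raised cell cycle genes made up 4473 of the mesothelial-like and 1232 of the matrix fibroblast-like cells. They were summed with the other cells of their class. All cells were labelled fibroblasts, and 20.6% fell in the clusters named matrix fibroblast-like. A name compares a cluster with all other cells and does not mean that the rest lack fibroblast genes. *Col1a1* was found in 94.3% to 98.7% of cells of the mesothelial-like clusters, against 67.7% of melanoma-like cells. In the hypoxic-like cells 5 of the 8 matrix fibroblast markers were higher than in the rest, such as *Col1a1* (6224 against 3584 UMIs per 1000000 UMIs, CPM). A further 1835 cells led by *Inmt*, *Opcml* and *Apod* stayed unnamed because of their low depth (median 1736 UMIs), although all 5 Pi16 fibroblast markers, and also all 5 endothelial markers, were higher in them than in the rest. The endothelial markers were found in at most 1.47% of these cells. Of these cells 94.0% came from the tdTomatoneg eGFPneg library. Melanoma-like (622) and immune-like (593) cells remained in spite of the gate. In the mesothelial-like clusters 6 to 8 of the 8 mesothelial markers counted as higher than in the rest. Class sizes depended on the setting. With 14 clusters in place of 10, 1449 cells were hypoxic-like and a further cluster of 3346 cells stayed unnamed. A cluster of 2215 cells, 57.3% of them tdTomato+ eGFPneg, was then named matrix fibroblast-like. Class comparisons below use the 10 clusters, and the border between hypoxic-like and matrix fibroblast-like cells depends on that setting. The share of matrix fibroblast-like cells was 6.89% in tdTomatoneg eGFP+, 11.2% in tdTomato+ eGFPneg, 10.4% in tdTomato+ eGFP+ and 33.5% in tdTomatoneg eGFPneg. Hypoxic-like cells made up 19.6%, 45.5%, 42.2% and 5.75% of the same libraries, and mesothelial-like cells 68.4%, 36.1%, 41.0% and 39.3%.

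All 10 genes were detected in every library, and their pooled levels spanned more than an order of magnitude. *Socs3* was highest at 218.1 CPM over all kept cells, followed by *Il6* at 143.8, *Osmr* at 108.7, *Il6st* at 107.7 and *Il11ra1* at 87.9 CPM. The other 5 genes were far lower, at 19.2 CPM for *Lifr*, 15.9 for *Lif*, 8.73 for *Clcf1*, 7.44 for *Il6ra* and 6.90 for *Il11*. The IL-6 ligand was thus abundant while its own receptor chain was among the lowest, and the shared chain *Il6st* and the oncostatin M receptor chain *Osmr* stood at nearly the same level. UMIs were counted at the 3′ end of transcripts, 1 per captured molecule, so levels of different genes were set side by side without a division by length. After each cell was thinned to 2000 UMIs, so that depth could not set the share, a UMI was found in 32.7% of cells for *Socs3*, 19.3% for *Il6*, 19.0% for *Il6st*, 18.6% for *Osmr*, 17.3% for *Il11ra1*, 3.90% for *Lifr*, 2.92% for *Lif*, 1.83% for *Clcf1*, 1.58% for *Il6ra* and 1.05% for *Il11*. As sequenced, without thinning, the shares were 63.3% for *Socs3*, 39.5% for *Il6*, 5.91% for *Il6ra* and 9.67% for *Lif*. Melanoma-like cells were taken as the reference for free RNA in the droplets: in 595 thinned melanoma-like cells the share was 2.52% for *Il6*, 5.88% for *Socs3*, 3.87% for *Il6st*, 1.51% for *Osmr*, 4.54% for *Il11ra1* and at most 0.504% for the other 5 genes. Melanoma-like cells were deeper, with a median of 17636 UMIs before thinning.

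*Il6*, the prototype of the family and a driver of acute-phase responses, was highest in tdTomato+ eGFPneg CAF. Its level was 112.5 CPM (95% Poisson interval 109.8 to 115.3) in tdTomatoneg eGFP+, 199.8 (195.8 to 203.7) in tdTomato+ eGFPneg, 146.7 (139.1 to 154.7) in tdTomato+ eGFP+ and 132.3 (129.9 to 134.8) in tdTomatoneg eGFPneg. No 2 of these intervals overlapped, so the order of the 4 libraries exceeded counting error, while the spread between tumors is unknown. The intervals take UMIs as independent and do not cover the spread between cells either. By class, *Il6* stood at 241, 372, 228 and 246 CPM in matrix fibroblast-like cells of the 4 libraries in the same order. In hypoxic-like cells it was 214, 234, 196 and 142 CPM, and in mesothelial-like cells 71.6, 128, 91.4 and 60.4 CPM. Mesothelial-like cells were therefore the lowest of the 3 large classes in every library. Within matrix fibroblast-like cells the tdTomato+ eGFPneg interval (356 to 389) lay above those of the other 3 libraries, which overlapped one another. Matrix fibroblast-like cells held 20.7% of all UMIs and 37.7% of the *Il6* UMIs, whereas mesothelial-like cells held 46.6% and 25.6%.

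A small number of cells carried a large part of *Il6*. The top 1% of cells (227 cells) held 15.1% of its UMIs, and 536 cells with at least 10 *Il6* UMIs held 26.9%, up to 57 UMIs in a single cell. Of these 536 cells, 248 were matrix fibroblast-like, 196 hypoxic-like and 80 mesothelial-like, which is 5.30%, 4.41% and 0.761% of each class, and none were among the 1835 unnamed cells. In matrix fibroblast-like cells the share with at least 10 *Il6* UMIs was 6.04% in tdTomatoneg eGFP+, 12.5% (69 of 553) in tdTomato+ eGFPneg, 5.21% in tdTomato+ eGFP+ and 4.12% in tdTomatoneg eGFPneg. These shares were not corrected for depth.

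*Lif*, whose product acts through *Lifr* and gp130, was the member that differed most between tdTomato+ and double-negative CAF. It was 16.1 CPM (15.1 to 17.2) in tdTomatoneg eGFP+, 27.1 (25.7 to 28.6) in tdTomato+ eGFPneg, 21.1 (18.2 to 24.2) in tdTomato+ eGFP+ and 8.53 (7.91 to 9.18) in tdTomatoneg eGFPneg. All 3 populations with a reporter lay above the double-negative library, and the thinned shares of cells had the same order (3.26%, 4.73%, 4.23% and 1.64%). Hypoxic-like cells had the most *Lif* of the 3 large classes in every library, at 29.1, 36.6, 24.8 and 16.7 CPM. Matrix fibroblast-like cells had 19.2, 18.6, 11.6 and 12.0 CPM, and mesothelial-like cells 12.5, 19.4, 21.5 and 6.16 CPM. *Il6* and *Lif* thus had different leading classes: of *Lif* UMIs, hypoxic-like cells held 43.6% and matrix fibroblast-like cells 17.7%.

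*Il11*, a ligand linked to fibrosis, was both rare and concentrated. Its level was 8.64 CPM (7.91 to 9.43) in tdTomatoneg eGFP+, 4.74 (4.15 to 5.39) in tdTomato+ eGFPneg, 3.21 (2.16 to 4.58, 30 UMIs) in tdTomato+ eGFP+ and 7.37 (6.80 to 7.97) in tdTomatoneg eGFPneg. Only 11 cells with at least 10 *Il11* UMIs held 25.2% of all its UMIs, and the highest cell had 143. Of these cells, 4 were tdTomatoneg eGFP+, holding 43.7% of the UMIs of that library, and 7 were tdTomatoneg eGFPneg, holding 20.8%. Without them the levels in these libraries were 4.87 and 5.84 CPM, so that the order of the upper 2 libraries turned. By class, 8 of the 11 cells were matrix fibroblast-like and 3 hypoxic-like. In the 96 matrix fibroblast-like cells of tdTomato+ eGFP+ no *Il11* UMI was found, which allows up to 3.57 CPM at the upper 95% limit.

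*Clcf1* was low and even. It ranged from 7.70 CPM in tdTomatoneg eGFPneg to 10.4 CPM in tdTomato+ eGFPneg, with 8.68 in tdTomatoneg eGFP+ and 9.52 in tdTomato+ eGFP+. Mesothelial-like cells held 50.4% of its UMIs, near their 46.6% of all UMIs. Oncostatin M itself (*Osm*) had 63 UMIs in all kept cells, of which 60 were in immune-like cells, so that its receptor chain was found widely in CAF and its message almost wholly outside them.

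**Figure D1:**
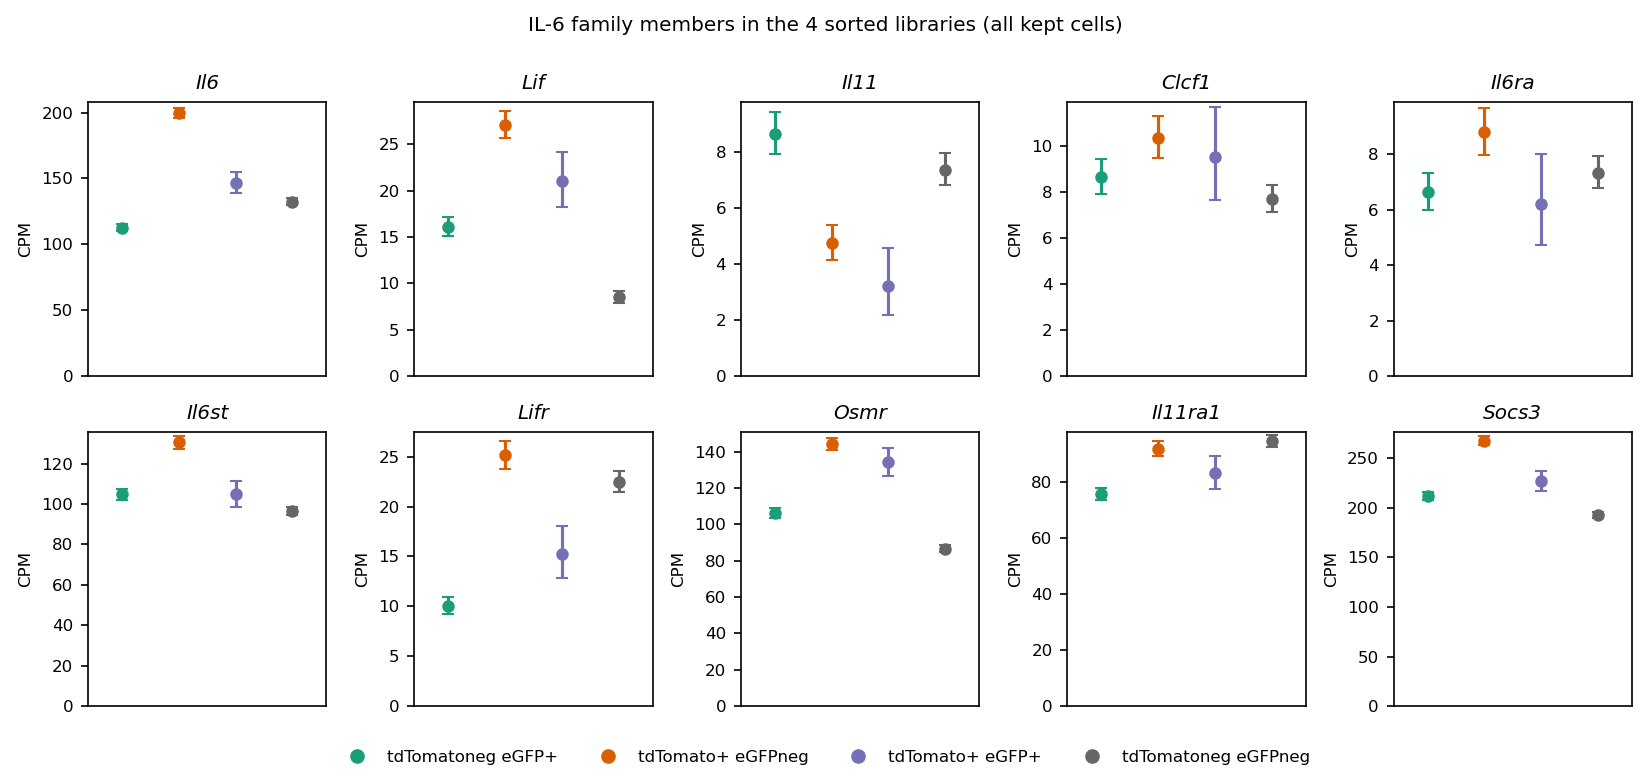
Level of each of the 10 genes (UMIs per 1000000 UMIs, CPM, linear axes from 0) in the 4 sorted libraries. Points show the level over all kept cells of 1 library and lines its 95% Poisson interval. *Il6*, *Lif*, *Osmr* and *Socs3* were highest in tdTomato+ eGFPneg, and *Lif* was lowest in tdTomatoneg eGFPneg at 8.53 CPM.

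*Il6ra*, the chain that binds IL-6, was scarce in all 4 libraries: 6.64 CPM (5.99 to 7.33) in tdTomatoneg eGFP+, 8.79 (7.99 to 9.66) in tdTomato+ eGFPneg, 6.20 (4.71 to 8.02) in tdTomato+ eGFP+ and 7.34 (6.77 to 7.95) in tdTomatoneg eGFPneg. Matrix fibroblast-like cells had 6.31, 7.58, 2.90 and 6.39 CPM, hypoxic-like cells 5.61, 7.85, 7.40 and 5.01 CPM, and mesothelial-like cells 6.60, 9.35, 5.31 and 5.63 CPM. Among CAF the chain was found at a higher level only in the unnamed cells, at 75.9 CPM (43.4 to 123) in tdTomatoneg eGFP+ and 44.5 CPM (37.9 to 52.0) in tdTomatoneg eGFPneg, the libraries with at least 50 of them. There 8.12% of the 764 cells deep enough to be thinned, out of 1835, had an *Il6ra* UMI, against 1.02% of matrix fibroblast-like, 1.5% of hypoxic-like, 1.30% of mesothelial-like and 0.168% of melanoma-like cells. Immune-like cells came next, at 19.0, 19.8 and 20.3 CPM in tdTomatoneg eGFP+, tdTomato+ eGFPneg and tdTomatoneg eGFPneg.

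*Il6st* and *Osmr*, the shared signalling chain and the oncostatin M receptor chain, were broad. *Il6st* was 104.7 CPM in tdTomatoneg eGFP+, 104.8 in tdTomato+ eGFP+ and 96.6 in tdTomatoneg eGFPneg, and highest in tdTomato+ eGFPneg at 130.45 CPM. In mesothelial-like cells it was 104, 120, 103 and 88.0 CPM, and in matrix fibroblast-like cells 132, 195, 96.8 and 122 CPM, so the chain that every member ligand needs was present in each large class. *Osmr* was 106.1 CPM in tdTomatoneg eGFP+, 144.3 in tdTomato+ eGFPneg, 134.1 in tdTomato+ eGFP+ and 86.5 in tdTomatoneg eGFPneg. Hypoxic-like cells had the highest *Osmr* of the 3 large classes in every library, at 157, 170, 165 and 120 CPM. In matrix fibroblast-like cells it was 132, 162, 135 and 114 CPM and in mesothelial-like cells 93.6, 125, 119 and 70.7 CPM.

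*Lifr* was the receptor chain with the clearest class pattern. Over all cells it was 10.1 CPM (9.28 to 10.9) in tdTomatoneg eGFP+, 25.2 (23.8 to 26.6) in tdTomato+ eGFPneg, 15.3 (12.9 to 18.0) in tdTomato+ eGFP+ and 22.5 (21.5 to 23.5) in tdTomatoneg eGFPneg. In matrix fibroblast-like cells it was 63.5 CPM in tdTomatoneg eGFP+, 97.3 in tdTomato+ eGFPneg, 51.3 in tdTomato+ eGFP+ and 46.7 in tdTomatoneg eGFPneg, and these cells held 59.7% of all *Lifr* UMIs. Hypoxic-like cells had 9.09, 18.6, 13.8 and 7.98 CPM, and mesothelial-like cells 4.42, 13.1, 7.44 and 3.78 CPM. In the same libraries the unnamed cells were higher than the matrix fibroblast-like cells, at 90.1 CPM in tdTomatoneg eGFP+ and 62.8 in tdTomatoneg eGFPneg, with overlapping intervals in the former. *Il11ra1* was 75.8, 91.8, 83.3 and 94.6 CPM over all cells of the 4 libraries, and its counts are uncertain because the near-identical copy *Il11ra2* was listed with 0 UMIs. It too was higher in matrix fibroblast-like cells (132, 165, 105 and 148 CPM) than in mesothelial-like cells (72.2, 81.8, 77.6 and 56.2 CPM), and higher still in the unnamed cells (161 and 216 CPM).

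*Socs3*, the STAT3-induced inhibitor of gp130, was 211.8 CPM (208.1 to 215.6) in tdTomatoneg eGFP+, 267.6 (263 to 272.1) in tdTomato+ eGFPneg, 226.8 (217.3 to 236.7) in tdTomato+ eGFP+ and 192.3 (189.4 to 195.3) in tdTomatoneg eGFPneg. It was found in all large classes, at 209, 255, 189 and 223 CPM in matrix fibroblast-like cells, 273, 304, 273 and 217 CPM in hypoxic-like cells and 199, 252, 210 and 161 CPM in mesothelial-like cells. Unlike *Il6*, it differed little between matrix fibroblast-like and mesothelial-like cells of the 3 populations with a reporter. The highest levels were in the unnamed cells, at 726 CPM (615 to 850) in tdTomatoneg eGFP+ and 544 CPM (520 to 568) in tdTomatoneg eGFPneg.

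**Figure D2:**
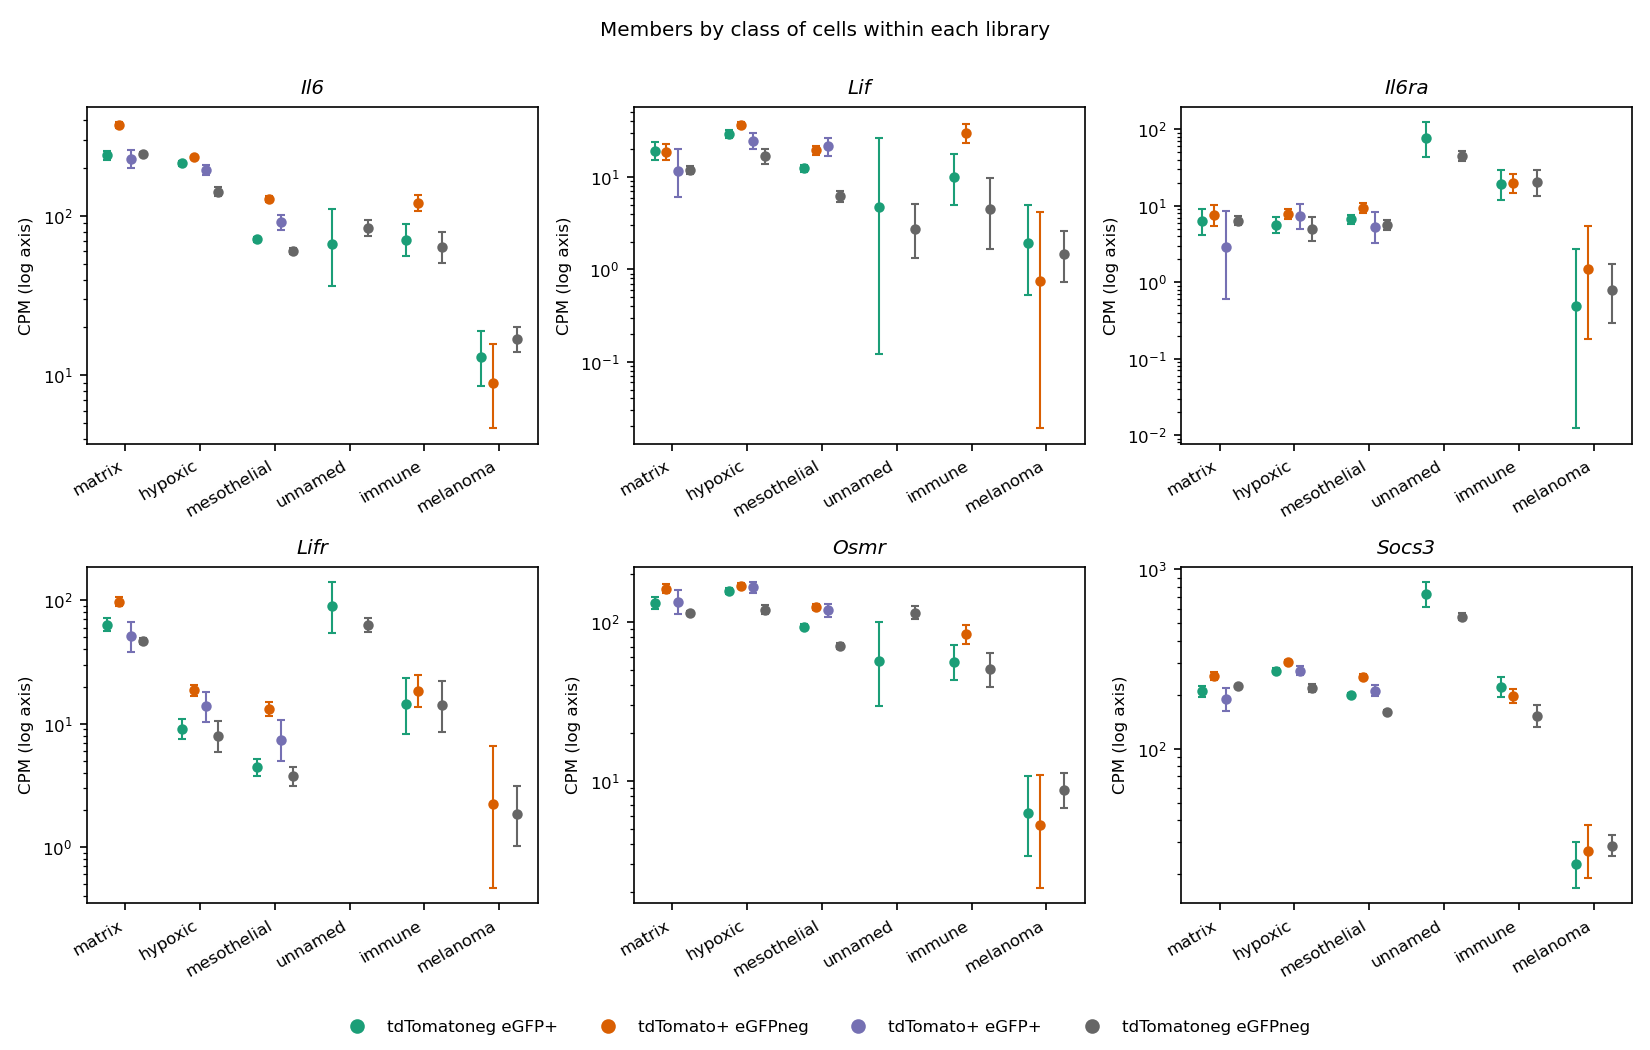
Level (CPM, log axis) of *Il6*, *Lif*, *Il6ra*, *Lifr*, *Osmr* and *Socs3* in the 6 cell classes, 1 point for each library with at least 50 cells of the class, with 95% Poisson intervals. Levels of 0 UMIs are not drawn. *Il6* was highest in matrix fibroblast-like cells (228 to 372 CPM), *Lif* in hypoxic-like cells (16.7 to 36.6 CPM), and *Il6ra* and *Socs3* in the unnamed cells.

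The sort asks how CAF with an active *Cxcl13* promoter or a *Cxcl13* lineage mark differ from CAF with neither. Against tdTomatoneg eGFPneg, *Lif* was past a 2-fold difference in both tdTomato+ populations. The log2 ratio of CPM was 1.67 (1.54 to 1.80), 3.18-fold, in tdTomato+ eGFPneg and 1.30 (1.07 to 1.53) in tdTomato+ eGFP+. In tdTomatoneg eGFP+ it was 0.92 (0.77 to 1.06), short of 2-fold. *Il11* was past 2-fold lower in tdTomato+ eGFP+ (log2 ratio −1.20, −1.78 to −0.67), and *Lifr* past 2-fold lower in tdTomatoneg eGFP+ (−1.16, −1.30 to −1.03). Of the 14855 genes with at least 100 UMIs, 4.36% were at least 2-fold higher and 4.9% at least 2-fold lower in tdTomato+ eGFPneg (9.26% in either direction). The shares were 3.78% and 7.05% (10.8%) in tdTomato+ eGFP+, and 1.67% and 4.89% (6.56%) in tdTomatoneg eGFP+. The members called were 1, 2 and 1 of 10 in these comparisons, counts near these backgrounds. The median log2 ratio of the 10 genes was 0.43, 0.13 and 0.13 in the same order, against 0.08, −0.03 and 0.08 for all genes tested. All 3 comparisons share the tdTomatoneg eGFPneg library.

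The other members differed by less than 2-fold. In tdTomato+ eGFPneg the log2 ratio was 0.74 (0.69 to 0.79) for *Osmr*, 0.59 (0.55 to 0.63) for *Il6*, 0.48 (0.44 to 0.51) for *Socs3* and 0.43 (0.39 to 0.48) for *Il6st*. *Il6ra* and *Lifr* differed little, at 0.26 (0.08 to 0.44) and 0.16 (0.06 to 0.27), and the interval of *Il11ra1* included 0 (−0.04, −0.10 to 0.01). *Clcf1* was at 0.43 (0.26 to 0.60), while the ligand *Il11* was lower (−0.64, −0.86 to −0.42), so the ligands did not share a direction in this library. In tdTomato+ eGFP+ the ratio was 0.63 (0.54 to 0.72) for *Osmr* and 0.15 (0.07 to 0.23) for *Il6*, and in tdTomatoneg eGFP+ it was 0.29 for *Osmr* and −0.23 (−0.28 to −0.19) for *Il6*. Both tdTomato+ populations could also be set against each other. In tdTomato+ eGFP+ over tdTomato+ eGFPneg the log2 ratio was −0.45 for *Il6*, −0.36 for *Lif*, −0.72 for *Lifr* and −0.12 (−0.46 to 0.20) for *Clcf1*, whose interval included 0.

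Some cells had UMIs of *Xist* and none of a Y-linked gene, or the reverse. Of the cells with 1 of these marks alone, the *Xist*-only cells made up 43.6% in tdTomatoneg eGFP+, 65.5% in tdTomato+ eGFPneg, 63.4% in tdTomato+ eGFP+ and 56.7% in tdTomatoneg eGFPneg, so the libraries differed in the share of cells with the female mark. In *Xist*-only cells the log2 ratio of *Il6* was 0.12 in tdTomato+ eGFPneg and −0.21 in tdTomato+ eGFP+, and in cells with Y-linked UMIs only it was 0.69 and 0.31. The *Il6* difference of tdTomato+ eGFP+ thus had opposite signs in cells with either mark. *Lif* kept its call in both sets of cells, with 1.44 and 1.80 in tdTomato+ eGFPneg and 1.10 and 1.52 in tdTomato+ eGFP+. *Lifr* did not: in tdTomatoneg eGFP+ it was −1.59 in *Xist*-only cells and −0.68, short of 2-fold, in Y-only cells, where *Il11* (−1.33) was past 2-fold instead. In tdTomato+ eGFPneg the sign of *Lifr* turned, with −0.62 and 0.90, and in tdTomato+ eGFP+ it was −1.81 and 0.48. For *Socs3* the ratios of the tdTomato+ populations in *Xist*-only cells were 0.37 and 0.16, but with each cell given equal weight those of tdTomato+ eGFP+ and tdTomatoneg eGFP+ were −0.04 and −0.10, below 0. *Il11* in tdTomato+ eGFP+ was −0.86 without the 11 cells with at least 10 UMIs, short of 2-fold.

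Since the libraries held different classes, the same ratios were taken within classes. *Lif* was higher in tdTomato+ eGFPneg than in tdTomatoneg eGFPneg by a log2 ratio of 0.63 (0.30 to 0.95) in matrix fibroblast-like, 1.13 (0.83 to 1.43) in hypoxic-like and 1.66 (1.40 to 1.91) in mesothelial-like cells. In tdTomato+ eGFP+ it was 1.80 (1.41 to 2.18) in mesothelial-like cells and −0.05 (−1.01 to 0.78) in matrix fibroblast-like cells. The mesothelial-like cells thus differed as much as all cells did, and the matrix fibroblast-like cells less or not beyond counting error. *Il6* in tdTomato+ eGFPneg was 0.60 in matrix fibroblast-like, 0.71 in hypoxic-like and 1.09 (1.00 to 1.17) in mesothelial-like cells. *Lifr* in that library was 0.16 over all cells but 1.06 (0.91 to 1.20), 1.22 (0.80 to 1.67) and 1.79 (1.48 to 2.12) in the same 3 classes. In tdTomatoneg eGFP+ *Lifr* was lower by 1.16 over all cells, yet the ratio was 0.44 (0.25 to 0.63), 0.19 and 0.23 within the classes. None of these point values was below 0. Those of hypoxic-like (0.19) and mesothelial-like cells (0.23) are given without intervals and are not claimed as differences. The library had 6.89% matrix fibroblast-like cells against 33.5% in the double-negative library.

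**Figure D3:**
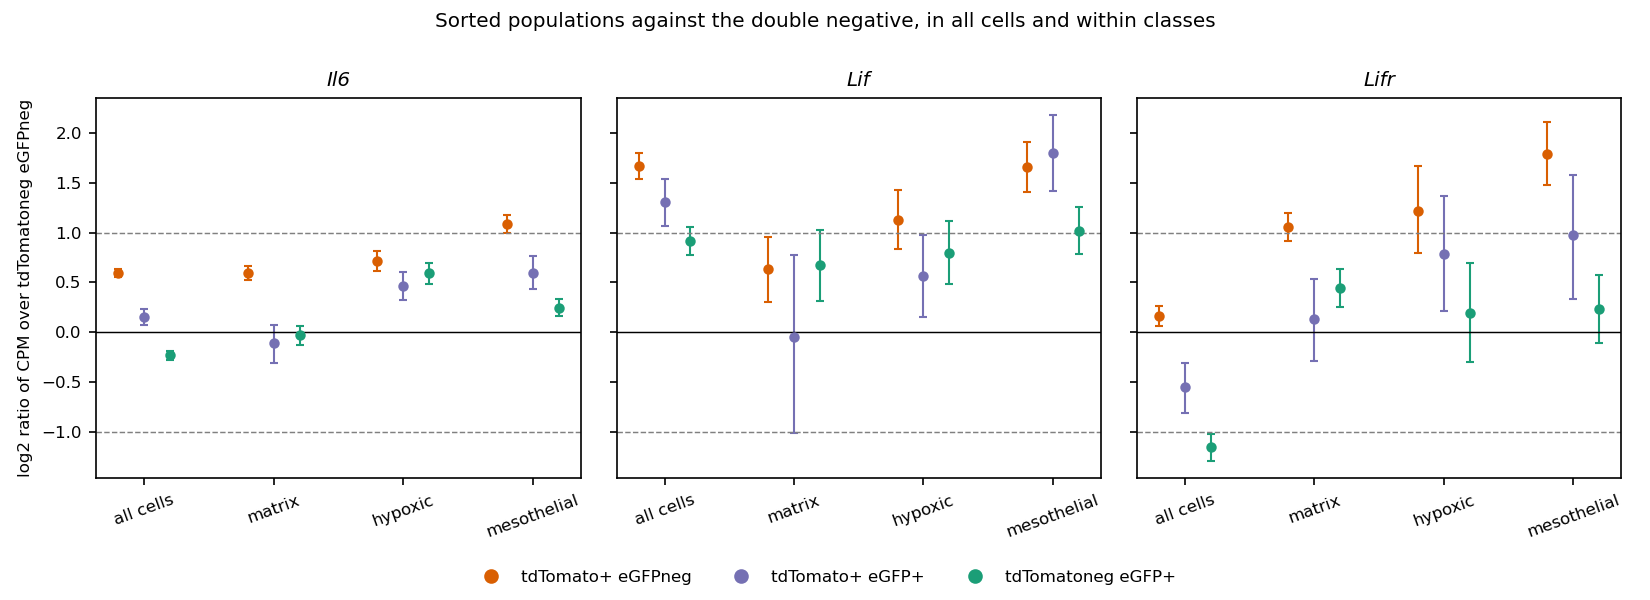
Log2 ratio of CPM of each population with a reporter over tdTomatoneg eGFPneg for *Il6*, *Lif* and *Lifr*, over all cells and within the 3 large classes, with 95% counting intervals and dashed lines at 2-fold. The point of *Lifr* in tdTomatoneg eGFP+ lies at −1.16 over all cells and above 0 within each class, nearer 0 in hypoxic-like and mesothelial-like cells.

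Classes were compared within each library, so that every library gave a separate value. *Il6* was lower in mesothelial-like than in matrix fibroblast-like cells in 4 of 4 libraries, with log2 ratios of −1.75 in tdTomatoneg eGFP+, −1.54 in tdTomato+ eGFPneg, −1.32 (−1.56 to −1.07) in tdTomato+ eGFP+ and −2.03 in tdTomatoneg eGFPneg. *Lifr* was lower by a wider margin, with −3.85, −2.89, −2.79 and −3.63 in the same order. These 2 members were at least 2-fold lower in every library and none was at least 2-fold higher, where 5.29% of all genes were lower and 5.45% higher by that rule (10.7% either). *Il11ra1* was lower in all 4 libraries but not always 2-fold (−0.87, −1.01, −0.43 and −1.40). *Osmr* (−0.18 to −0.69) was lower by less, and the ratio of *Clcf1* was above 0 in all 4 (0.48, 0.52, 0.94 and 0.23). The *Clcf1* ratios are given without intervals and rest on low levels, 4.84 to 7.76 CPM in matrix fibroblast-like cells, so a difference beyond counting error is not claimed. *Socs3* was near equal in both classes of the populations with a reporter (−0.07, −0.02 and 0.16) and lower in mesothelial-like cells of tdTomatoneg eGFPneg (−0.47). *Lif* had no common direction, at −0.62 (−0.96 to −0.26), 0.06, 0.89 (0.01 to 1.90) and −0.96 (−1.21 to −0.71). The median over the members was −0.26, and 0.02 over all genes tested.

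**Figure D4:**
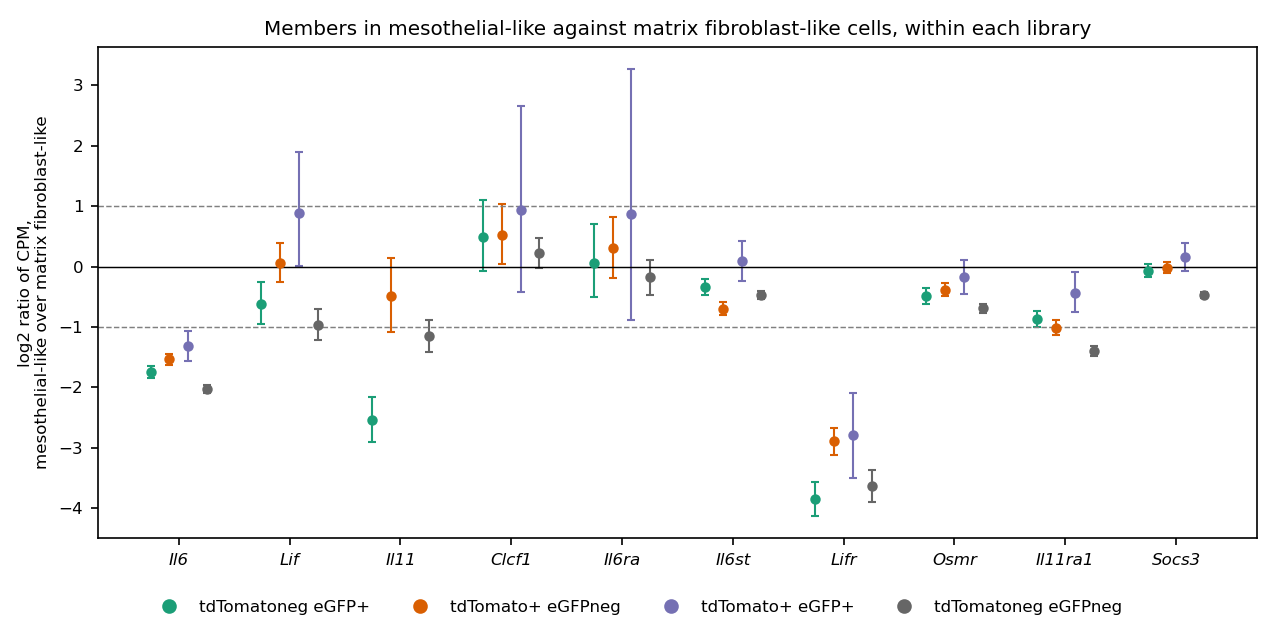
Log2 ratio of CPM in mesothelial-like over matrix fibroblast-like cells for the 10 genes, 1 point for each library, with 95% counting intervals and dashed lines at 2-fold. *Il11* in tdTomato+ eGFP+ is not drawn because no UMI was found in its matrix fibroblast-like cells. *Lifr* and *Il6* lie below −1 in all 4 libraries and *Lif* on both sides of 0.

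In hypoxic-like against matrix fibroblast-like cells *Lifr* was again at least 2-fold lower in 4 of 4 libraries, with log2 ratios of −2.81, −2.39, −1.90 and −2.55, where 5.54% of all genes were lower and 3.72% higher by that rule (9.26% either). *Lif* was higher in all 4 (0.60, 0.98, 1.09 and 0.48) and *Il6* lower in all 4 (−0.17, −0.67, −0.21 and −0.79), both short of 2-fold in at least 1 library. The ligand LIF and the chain LIFR thus had their highest levels in different large classes, hypoxic-like for the ligand and matrix fibroblast-like for the chain, in all 4 libraries. In tdTomato+ eGFP+ the *Lif* levels of hypoxic-like and mesothelial-like cells (24.8 and 21.5 CPM) were close.

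The unnamed cells differed from matrix fibroblast-like cells in receptor chains, inhibitor and ligands. Against matrix fibroblast-like cells, *Il6ra* was higher by a log2 ratio of 3.59 (2.60 to 4.53) in tdTomatoneg eGFP+ and 2.80 (2.49 to 3.11) in tdTomatoneg eGFPneg, and *Socs3* by 1.80 and 1.29. The ligands were lower: *Il6* by a log2 ratio of −1.86 and −1.55, and *Lif* by −2.01 (1 UMI) and −2.12. *Il11* was at −3.38 in tdTomatoneg eGFPneg and had no UMI in the unnamed cells of tdTomatoneg eGFP+. By this rule 7.79% of all genes were higher and 10.2% lower (18% either). Genes linked to tissue digestion moved with *Socs3* in these cells: of 12 immediate-early genes, *Egr1* (1.34 and 1.15), *Atf3* (1.99 and 1.08) and *Dusp1* (1.26 and 1.00) were at least 2-fold higher in both libraries. So was the STAT3-linked factor *Cebpd* (1.58 and 1.81), while the STAT3-linked secreted proteins *Saa3* (−3.96 and −3.48), *Lcn2* (−3.74 and −2.90) and *Timp1* (−5.28 and −4.46) were lower. Of the unnamed cells with 1 sex mark alone, 98.6% had the *Xist* mark (100% and 98.5% in these libraries), against 53.5% of such matrix fibroblast-like cells. The part of digestion, low depth or sex in the *Socs3* level was not tested.

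Whether ligand and receptor were found in the same or in different cells was asked after thinning each cell to 2000 UMIs, since a deeper cell shows more of every gene. Of 3817 cells with an *Il6* UMI, 67 had an *Il6ra* UMI, which is 1.76% (95% Clopper-Pearson interval 1.36 to 2.22), against 1.54% (1.36 to 1.75) of cells without *Il6*. Cells with both made up 0.338% of thinned cells and 2.86% as sequenced. In matrix fibroblast-like cells the shares were 1.76% (25 of 1418 cells, 1.14 to 2.59) and 0.672% (0.411 to 1.04), in hypoxic-like cells 1.68% and 1.43%, and in mesothelial-like cells 0.918% and 1.35%. Intervals were apart in matrix fibroblast-like cells only, and over strata of 1 class in 1 library the share was higher with *Il6* in 4 of 10, with intervals apart in none. Nearly all cells with *Il6* message therefore showed no *Il6ra* message at this depth, and as sequenced 7.26% did (650 of 8952), against 5.04% of cells without *Il6*.

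For LIF, 14 of 579 thinned cells with a *Lif* UMI had a *Lifr* UMI, 2.42% (1.33 to 4.02), against 3.95% (3.68 to 4.23) of the other cells. In matrix fibroblast-like cells, where most of the receptor message lay, it was 1.89% (2 of 106 cells, 0.229 to 6.65) against 9.84% (8.97 to 10.8). As sequenced the same comparison gave 32.0% against 29.3%, so this direction was not stable to thinning and rested on 2 cells. Of 208 cells with *Il11*, 28 had *Il11ra1*, 13.5% (9.13 to 18.9) against 17.3% without, and of 363 with *Clcf1*, 5 had *Lifr*, 1.38% against 3.95%. Taking the 4 ligands with their own receptor chain together, 2.43% of thinned cells with the ligand also had the chain.

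The shared chain, *Osmr* and *Socs3* were found more often beside *Il6*. *Il6st* was detected in 22.6% (21.3 to 23.9) of cells with *Il6* and 18.1% (17.6 to 18.8) without, *Osmr* in 23.6% (22.3 to 25) and 17.4%, and *Socs3* in 38.8% (37.2 to 40.3) and 31.3% (30.6 to 32.0). Within strata of 1 class and 1 library the share was higher with *Il6* in 8 of 10 for *Il6st*, 10 of 10 for *Osmr* and 8 of 10 for *Socs3*, with intervals apart in 0, 0 and 2 of them. For *Socs3* the difference was widest in matrix fibroblast-like cells, at 38.9% (36.3 to 41.5) against 30.5% (28.8 to 32.2), and narrower in hypoxic-like cells, at 40.7% against 38.3%. Beside *Lif*, *Socs3* was found in 33.5% of cells, close to the 32.7% without *Lif*. Among receptor chains, *Il6st* was detected in 29.7% (26.5 to 33.1) of cells with *Lifr* and 18.6% without, and the share was higher in 5 of 5 strata. In matrix fibroblast-like cells it was 33.7% (29.2 to 38.4) against 20.7% (19.5 to 22.0). Of the ligands, *Lif* was detected in 4.56% (3.92 to 5.27) of cells with *Il6* and 2.53% without, higher in 9 of 10 strata.

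**Figure D5:**
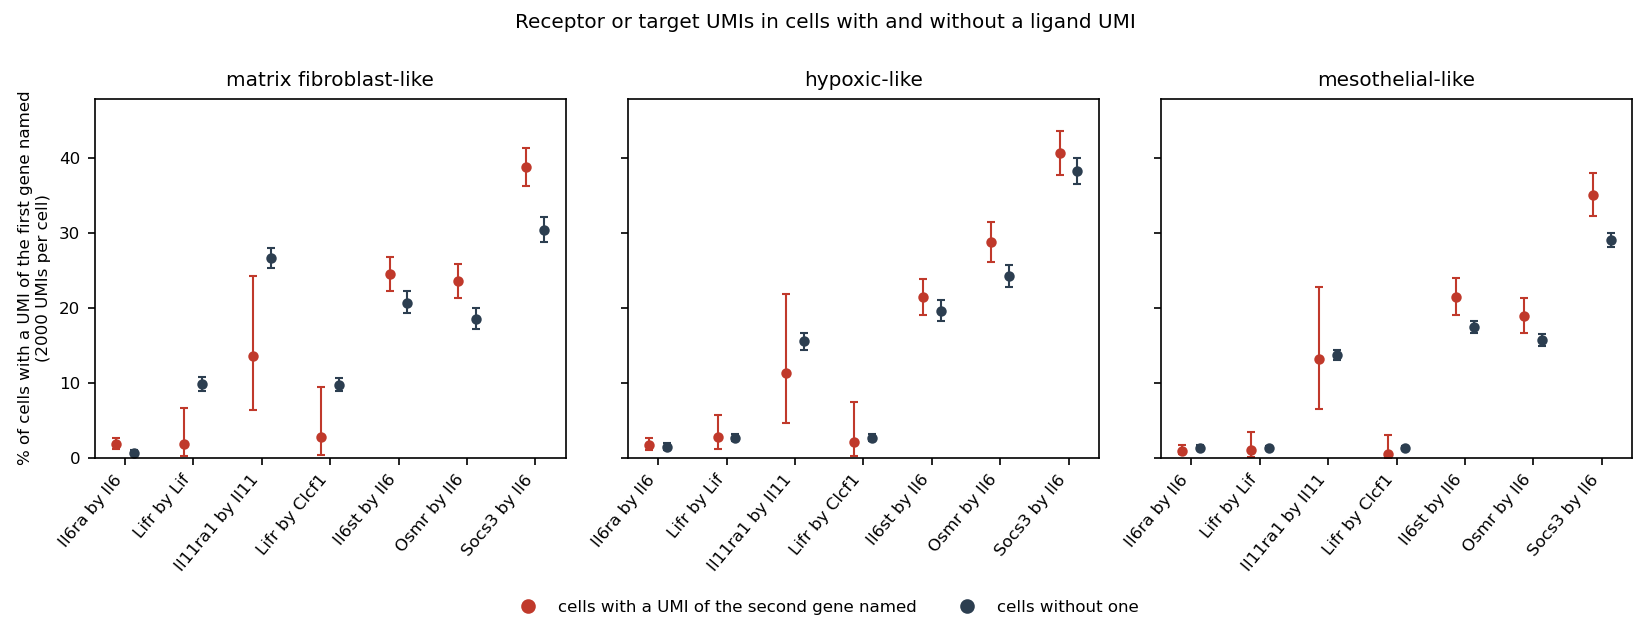
Share of cells (percent, after thinning to 2000 UMIs per cell) with a UMI of a receptor chain or of *Socs3* among cells with and without a UMI of a ligand, in the 3 large classes, with 95% Clopper-Pearson intervals. *Socs3* was found in 38.9% of matrix fibroblast-like cells with *Il6* and 30.5% without.

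Matrix fibroblast-like cells with an *Il6* UMI were also compared with those without one, as sequenced, in the 3 libraries with at least 50 cells of each. None of the other 9 members was at least 2-fold different in all 3, where 1.28% of all genes were higher and 0.0404% lower (1.32% either). The log2 ratios of *Socs3* were 0.32, 0.71 and 0.50 in tdTomatoneg eGFP+, tdTomato+ eGFPneg and tdTomatoneg eGFPneg, those of *Stat3* 0.44, 0.47 and 0.43, and those of the STAT3 target *Pim1* 0.75, 1.02 and 0.81. The immediate-early gene *Egr1* moved with them, at 0.76, 0.87 and 0.77. None of the 17 STAT3-linked targets was at least 2-fold different in all 3 libraries, and *Pim1* was among those with the largest ratios. *Saa3* (0.42 to 0.99) and *Myc* (0.42 to 0.65) were also higher in all 3, *Serpina3n* was at 0.17 to 0.19, and *Timp1* was lower (−0.20 to −0.12). The part of tissue digestion in these differences was not tested. The median log2 ratio of the 9 members was 0.35, against 0.05 over all genes, and cells with an *Il6* UMI were deeper than those without.

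Of 41 other genes of the pathway, 39 were measured above the minimum of 100 UMIs. The kinases *Jak1*, *Jak2* and *Tyk2* and the transcription factors *Stat3*, *Stat5a* and *Stat5b* were short of 2-fold between populations, and none passed 2-fold in every library of a class comparison, although single libraries did. *Stat3* was 167.8 CPM in tdTomatoneg eGFP+, 207.2 in tdTomato+ eGFPneg, 170.1 in tdTomato+ eGFP+ and 133.0 in tdTomatoneg eGFPneg. Against tdTomatoneg eGFPneg, 5 of these 39 genes were at least 2-fold higher in tdTomato+ eGFPneg, 4 in tdTomato+ eGFP+ and 0 in tdTomatoneg eGFP+. Of all genes tested, 4.36%, 3.78% and 1.67% were higher in the same order. Those higher in both tdTomato+ populations were the acute-phase gene *Saa3* (log2 ratio 1.44 and 1.41), the iron-binding lipocalin *Lcn2* (1.47 and 1.36), the IL-1 receptor antagonist *Il1rn* (1.80 and 1.79) and the IL-4 receptor chain *Il4ra* (1.19 and 1.16), all linked to STAT3. *Saa3* was 9697 CPM in tdTomatoneg eGFP+, 15744 in tdTomato+ eGFPneg, 15457 in tdTomato+ eGFP+ and 5818 in tdTomatoneg eGFPneg. *Steap4* (1.11) was past 2-fold in tdTomato+ eGFPneg. Of the 17 STAT3-linked targets, 5 were thus called in tdTomato+ eGFPneg and 4 in tdTomato+ eGFP+, and the others were short of 2-fold. These ratios were taken over all cells, and the libraries differed in their classes. In tdTomatoneg eGFP+ the receptor *Cntfr* (−1.05) and *Lrg1* (−1.16) were past 2-fold lower. None of the 12 immediate-early genes was past 2-fold between populations.

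Between classes, several genes of the list were at least 2-fold lower in mesothelial-like than in matrix fibroblast-like cells in 4 of 4 libraries. They were receptor, inhibitor and target genes: *Cntfr* (log2 ratios of −1.87 to −3.83), *Socs2* (−1.48 to −1.73), *Lrg1* (−2.63 to −4.87), *Serpina3n* (−1.33 to −1.91) and *Timp1* (−1.19 to −2.04). With *Lifr* (−2.79 to −3.85), both receptor chains that CLCF1 uses beside gp130 were lower in mesothelial-like cells. The ratio of *Clcf1* itself was 0.23 to 0.94, on low counts. *Il1rn* was the 1 gene of the list that was higher, with no UMI in matrix fibroblast-like cells of 3 libraries. In hypoxic-like cells 2 genes of the list were higher, *Saa3* (1.05 to 1.87) and *Il1rn*, and *Socs2* and *Lrg1* were lower.

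The genes whose levels ran most alike with 4 of the members were found over 20 strata of 1 class in 1 library, by Pearson's r of log2(CPM + 1) across 8326 genes. The strata share libraries and include melanoma-like and immune-like cells, and r without melanoma-like cells (17 strata) is given second. For *Il6* they were *Rnf150* (0.979 and 0.946), the transcription factor *Snai1* (0.978 and 0.922), the collagen gene *Col5a1* (0.977 and 0.926), *Glipr2* (0.977 and 0.936) and the collagen gene *Col5a2* (0.974 and 0.919). For *Lif* they were *Bach1* (0.964 and 0.936), the IL-1 receptor *Il1r1* (0.963 and 0.944), *Cyp7b1* (0.961 and 0.946), *Prickle1* (0.951 and 0.931) and *Lrmda* (0.951 and 0.954). *Socs3* ran with the immediate-early genes *Jun* (0.985 and 0.926) and *Egr1* (0.978 and 0.916) and with *Arhgap6* (0.980 and 0.902), *Tgfbr3* (0.977 and 0.857) and *Rras* (0.977 and 0.887). *Osmr* ran with *Lhfp* (0.990 and 0.918), *Slit3* (0.987 and 0.923), *Prrx1* (0.985 and 0.941), *Fbln2* (0.984 and 0.870) and *Meis1* (0.984 and 0.920). These are descriptions of level and carry no statement on function.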

How the data were processed

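The deposited values were raw UMI counts per gene and cell barcode, 1 matrix for each of 4 libraries made with the 10x Chromium 3′ v3.1 kit; the file headers name Cell Ranger 8.0.0, and the submitters' processing notes list Cell Ranger 10.0.0, STAR, Seurat 5.0 and build GRCm39. The filters of the study were applied, namely 500 to 6000 genes per cell and no more than 10% mitochondrial UMIs. How many animals or tumors went into each library is not given in the sources used here, so no test between populations was possible. Levels are CPM of summed counts (median depth 5607 to 9154 UMIs per cell) with 95% Poisson intervals, and shares have 95% Clopper-Pearson intervals, which cover counting error only. Shares were taken after thinning cells of at least 2000 UMIs to that number (19822 cells, seed 1).

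Clusters were made with Seurat 5.3.0 in R 4.3.3 (2000 variable genes less the members and lists, 25 components, resolution 0.4, 10 clusters). A cluster took the name of the marker list with the largest median fold. Lists qualified with at least 3 markers, and the median, past a log2 fold of 0.25. A cluster stayed unnamed if no list qualified or if its median depth was too low. Expected doublets were not removed in the main analysis. A gene was called at a log2 ratio of at least 1 in size, and in class comparisons only when this held in every library with at least 50 cells on both sides. Genes with at least 100 UMIs were tested (14855). Named genes were the 10 members, a list of 41 pathway genes (some of which are not reported here), 12 immediate-early genes, and the 5 genes most correlated with *Il6*, *Lif*, *Osmr* and *Socs3*. The members and lists were chosen with earlier results of these data known. Scripts used Python 3.11.15, numpy 2.4.6, scipy 1.17.1, scanpy 1.11.5 (Scrublet) and edgeR 4.0.16 (TMM factors only) and were tested on simulated data.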

Additional observations from a re-analysis of the deposited data

Results flagged for a closer look

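*Lif*, the LIF gene, was singled out because its difference between mesothelial-like and matrix fibroblast-like cells took opposite directions in different libraries. The log2 ratio was 0.89 (0.01 to 1.90) in tdTomato+ eGFP+, where the matrix fibroblast-like cells had 12 *Lif* UMIs, and −0.62 (−0.96 to −0.26) in tdTomatoneg eGFP+ and −0.96 (−1.21 to −0.71) in tdTomatoneg eGFPneg. The difference between these libraries was not tested, since each population gave 1 library.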

How the results depend on the processing

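With 1 library for each population, intervals measure counting error and not the spread between tumors or between cells. Rare genes (*Il11*, *Il6ra*, *Clcf1*, *Lif*) are limited by depth. No paired analysis was possible because each population gave 1 library. Of the counts and shares that answer a comparison, 58 kept within 1.5 times or the counting interval of the reported value and 7 moved; no called value reversed. In cells with Y-linked UMIs only, 2 members were called in tdTomato+ eGFPneg (*Il11* in addition, −1.02) and 1 in mesothelial-like cells, against 1 and 2. With each cell given equal weight, 1 member was called in tdTomato+ eGFP+ (*Il11* at −0.42) and 2 in tdTomatoneg eGFP+ (*Lif* at 1.12). Without the 11 cells with at least 10 *Il11* UMIs, an alternative chosen after seeing the data, 1 was called in tdTomato+ eGFP+. The share of cells with a ligand that also had its chain was 14.1% without thinning and 5.34% thinned to 4000 UMIs, against 2.43%, as follows from the greater depth. Leaving out 1 library at a time gave 2 to 2 members called in mesothelial-like against matrix fibroblast-like cells and 0 to 0 for cells with *Il6*. Of the ratios of single genes, 486 kept within their interval or 1 SD over libraries and 89 did not, most of them in cells of either sex mark (51 together).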

Other observations

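*Il6*, *Socs3*, *Il6st*, *Osmr* and *Lif* differed in level between cells with the *Xist* mark alone and cells with Y-linked UMIs alone. Cells with *Xist* only had 186 CPM of *Il6* in tdTomatoneg eGFP+, 228 in tdTomato+ eGFPneg, 181 in tdTomato+ eGFP+ and 210 in tdTomatoneg eGFPneg, and cells with Y-linked UMIs only had 82.5, 175, 134 and 108 CPM. *Socs3* was 278, 315, 273 and 244 CPM against 160, 174, 181 and 150 CPM. All 5 genes were higher in the *Xist*-only cells of all 4 libraries, with log2 ratios of 0.21 to 0.57 for *Il6st*, 0.19 to 0.42 for *Osmr* and 0.06 to 0.48 for *Lif*, and the share of all genes that were higher was not computed. Of the cells with 1 mark alone, *Xist*-only cells made up 77.2% among hypoxic-like, 53.5% among matrix fibroblast-like and 39.0% among mesothelial-like cells. Within classes of 1 library *Socs3* was higher in *Xist*-only cells in 11 of 11 strata, and so was *Il6st*, while *Osmr* was in 10 of 11. *Il6* was higher in 3 of 3 strata of matrix fibroblast-like cells (log2 ratio 0.76 to 1.09), 4 of 4 of mesothelial-like cells (0.10 to 0.89) and 3 of 4 of hypoxic-like cells. *Lif* did not keep its direction within classes. It was higher in 3 of 3 strata of matrix fibroblast-like cells, but in 1 of 4 of hypoxic-like cells (−0.46 to 0.13) and 1 of 4 of mesothelial-like cells (−0.61 to 0.39). The number of mice of either sex is not known, so sex and mouse cannot be told apart.

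Mesothelial-like cells were not uniform in receptors. In the cluster led by *Col6a6*, *Il6ra* stood at 11.7 CPM and *Osmr* at 126.8 CPM, and in the cluster led by *Fxyd3* at 4.49 and 71.1 CPM.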
